A study of Arabidopsis thaliana with 4 samples.

Results

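A set of 10 genes of *Arabidopsis thaliana*, known for sugar starvation or for the breakdown of amino acids, was described in shoot tissue of the *ang3* mutant and of its control Ler, the Landsberg erecta strain. The 10 genes are ASPGB1 (At3g16150), ASN1 (At3g47340, also DIN6), DIN1 (At4g35770, also SEN1), DIN4 (At3g13450), DIN10 (At5g20250), At3g15450, BCAT2 (At1g10070), MCCA (At1g03090), IVD (At3g45300) and At5g09300. Each has 1 probe on the array, and all 10 were among the 20155 genes and unnamed probes tested. They were chosen with the *ang3* over Ler ratios of these arrays known, so their ratios are given as a description, with no test.

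Transcripts were measured on 4 Agilent arrays with 2 colours, on which RNA of the *ang3* mutant was hybridised together with RNA of Ler. Replicates 1 and 3 carried *ang3* in Cy5 and Ler in Cy3, and replicates 2 and 4 had the dyes exchanged. Both genotypes were grown in vitro at 21 °C with 16 h of light after 3 days in the cold. The labels call the tissue shoot apex at stage 1.02, whereas the series text describes the whole green parts at stage 1.03, with cotyledons and young leaves. The labels give the mutant by name only. From background knowledge *ang3* affects RPL5B, a protein of the large ribosomal subunit, and its probe had a log2 ratio of -0.04 (limma, Benjamini-Hochberg adjusted p = 0.70), which does not check a mutation that leaves the transcript in place.

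Plant cells that run short of sugar, as in extended darkness, switch on a set of DARK INDUCIBLE (DIN) genes and draw on protein and amino acids as fuel. The kinase SnRK1 and transcription factors of the bZIP family carry much of this switch, and glucose or sucrose turns the genes down. Leucine, isoleucine and valine, the branched-chain amino acids, are broken down in mitochondria: an aminotransferase (BCAT) removes the amino group, the branched-chain keto acid dehydrogenase complex oxidises the product, and IVD and methylcrotonyl-CoA carboxylase act further along the leucine branch. Asparagine stores and moves nitrogen, and asparagine synthetase 1 is a classic gene of darkness and sugar shortage.

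All of the 10 genes but BCAT2 had lower levels in *ang3* than in Ler on 4 of 4 arrays, and BCAT2 had higher levels on 4 of 4. Among all 20155 genes and probes tested, 19.0% were lower and 25.0% higher on every array. The median log2 ratio of the 10 genes was -0.53, beside 0.01 over everything tested. Their mean ratios ran from -1.43 for ASPGB1 to 0.32 for BCAT2. The genotypes were completely separate for 6 of the 10 in normalised channel intensity: 5 lay lower in all 4 *ang3* channels than in any Ler channel, a pattern found in 9.28% of everything tested, and BCAT2 lay higher, as did 13.2%. Since RNA came from tissue of mixed cell types, fewer cells of a type and less RNA per cell cannot be told apart.

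**Figure D1:**
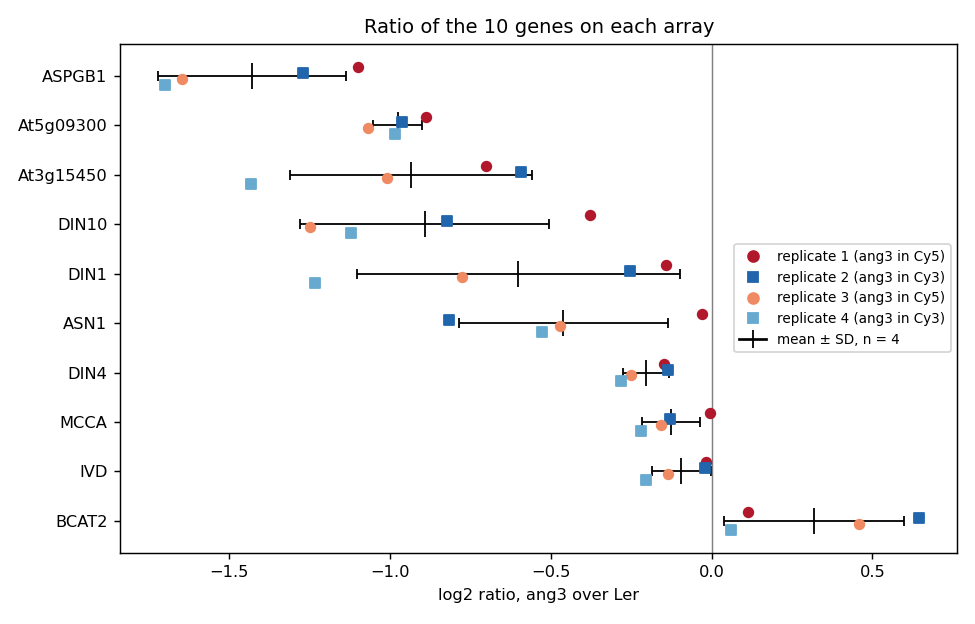
Log2 ratio of *ang3* over Ler for the 10 genes, with 1 point for each of the 4 arrays, the mean and the SD (n = 4). ASPGB1 and At5g09300 lie near or below -1 on every array, DIN4, MCCA and IVD lie close to 0, and BCAT2 alone lies above 0.

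The genes of asparagine metabolism gave the lowest ratio of all. ASPGB1 is an asparaginase, which splits asparagine into aspartate and ammonium. Its log2 ratios were -1.10, -1.27, -1.65 and -1.70 on replicates 1 to 4, with a mean of -1.43 (SD 0.29, n = 4), or 37.1% of the Ler level. Its normalised intensity was 399, 325, 337 and 398 in *ang3*, against 856, 785, 1058 and 1294 in Ler. Every *ang3* value was thus below every Ler value. As analysed here, ASPGB1 was the only one of the 10 genes whose mean ratio was at least 2-fold lower in *ang3*. That group held 0.0298% of everything tested (6 genes and probes). With no offset added after background correction, ASPGB1 was at -1.57 and At5g09300 at -1.03. In the scanner's processed signals ASPGB1 (-1.87), At5g09300 (-1.17) and ASN1 (-1.13) were past 2-fold.

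ASN1, the asparagine synthetase that darkness and sugar shortage induce, had log2 ratios of -0.03, -0.82, -0.47 and -0.53, with a mean of -0.46 (SD 0.33, n = 4), or 72.6% of the Ler level. Its intensity was 193, 169, 162 and 160 in *ang3*, against 197, 298, 224 and 231 in Ler. These are dim values that include the offset of 50 added after background correction. MIOX4, which was too dim to be tested, lay at 120 to 137 in *ang3* and 123 to 137 in Ler. The genotypes were almost level on replicate 1 and apart on the other 3 arrays, and the highest *ang3* value was just below the lowest Ler value. The ratio of ASN1 depended on the processing. It was -0.66 with no offset added after background correction, and -1.13 in the scanner's processed signals, in which both the background step and the dye normalisation differ. In the authors' deposited table its log2 ratios were -0.14, -1.30, -1.61 and -1.49.

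The 2 other asparagine synthetases and the second asparaginase had ratios close to 0, at 0.03 for ASN2, 0.02 for ASN3 and 0.11 for ASPGA1 (adjusted p = 0.074). Of 15 further genes of asparagine and glutamine metabolism, 3 rose, 2 fell and 10 did not pass an adjusted p of 0.05 in limma, and their median log2 ratio was 0.06. Across everything tested, 26.2% passed, as 15.0% rose and 11.2% fell (3018 and 2265, beside 2124 and 2417 in the processed signals and 6952 and 425 with median centring). The glutamine synthetase GLN1;3 (0.34), the aspartate aminotransferase ASP2 (0.29) and the glutamate synthase GLU2 (0.19) rose, while GLN1;4 (-0.57) and the ferredoxin-dependent glutamate synthase GLU1 (-0.26) fell. The list thus moved both ways, but no rise passed without replicate 3 and no fall without replicate 2.

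In branched-chain amino acid breakdown, the genes chosen here ranged from -0.98 to 0.32 in mean log2 ratio. BCAT2, an aminotransferase of this pathway, had log2 ratios of 0.11, 0.65, 0.46 and 0.06, with a mean of 0.32 (SD 0.28, n = 4), or 124.7% of the Ler level. Its intensity was 268, 318, 327 and 252 in *ang3*, against 248, 203, 238 and 242 in Ler. The genotypes did not overlap, but replicates 1 and 4 showed only small differences, and without replicate 2 the mean ratio was 0.17.

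BCAT1, the mitochondrial aminotransferase that breaks down branched-chain amino acids and whose gene lies next to BCAT2, went the other way. It fell in *ang3* with log2 ratios of -0.42, -0.57, -0.68 and -0.60 (mean -0.57, SE 0.05, limma adjusted p = 0.0079), and the call held under all 11 alternative analyses. The aminotransferases outside the mitochondrion stayed near 0, with 0.09 for BCAT3, 0.01 for BCAT4 and -0.02 for BCAT5, and At1g50110, which has no name in the gene table, rose by 0.16 (adjusted p = 0.031), a call lost without any 1 of the 4 arrays and in the processed signals.

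At5g09300, which was placed with this pathway and has no name in the gene table, had log2 ratios of -0.89, -0.96, -1.07 and -0.98 (mean -0.98, SD 0.08, n = 4), or 50.8% of the Ler level. Its intensity was 640, 687, 675 and 807 in *ang3*, against 1183, 1340, 1417 and 1598 in Ler. The mean ratio was -1.03 with no offset and -1.17 in the processed signals. At5g09300 gave the most even of the large differences. Both dye orientations gave almost the same mean (-0.98 with *ang3* in Cy5 and -0.97 with *ang3* in Cy3). At1g21400, another unnamed gene of the list, had a ratio of -0.12 that varied little between arrays (SD 0.01) and missed the threshold (adjusted p = 0.059).

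DIN4, the E1 beta subunit of the keto acid dehydrogenase complex, had log2 ratios of -0.15, -0.14, -0.25 and -0.28 (mean -0.20, SD 0.07, n = 4), or 86.8% of the Ler level. Its intensity was 725, 680, 717 and 514 in *ang3*, against 803, 748, 853 and 625 in Ler. The ratio was below 0 within each array although the levels of the genotypes overlapped between arrays. The other E1 beta gene, BCDH BETA1, had a ratio of -0.06 (adjusted p = 0.34), and DIN3, the E2 subunit, fell by 0.21 (adjusted p = 0.018). The call on DIN3 was lost without any 1 of the 4 arrays (adjusted p 0.054 to 0.087) and with median centring. Of the E3 subunits, mtLPD2 rose (0.18, adjusted p = 0.026, lost without any 1 of the 4 arrays and in the processed signals) and mtLPD1 had a ratio of -0.04.

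IVD, isovaleryl-CoA dehydrogenase, and MCCA, the alpha subunit of methylcrotonyl-CoA carboxylase, had ratios near 0. IVD had log2 ratios of -0.02, -0.02, -0.13 and -0.21 (mean -0.09, SD 0.09, n = 4), with intensities of 1147, 979, 1148 and 920 in *ang3*, against 1160, 993, 1260 and 1060 in Ler. MCCA had log2 ratios of -0.004, -0.13, -0.16 and -0.22 (mean -0.13, SD 0.09, n = 4), with intensities of 942, 960, 951 and 901 in *ang3*, against 944, 1049, 1061 and 1048 in Ler. These are levels of 93.7% and 91.5% of Ler, and the genotypes overlapped for both genes. The sign of both rested on the normalisation: with median centring in place of loess IVD was at 0.09 and MCCA at 0.05, while the median of all genes moved up by 0.13. Set against that shift, IVD was at -0.04 and MCCA at -0.09.

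**Figure D2:**
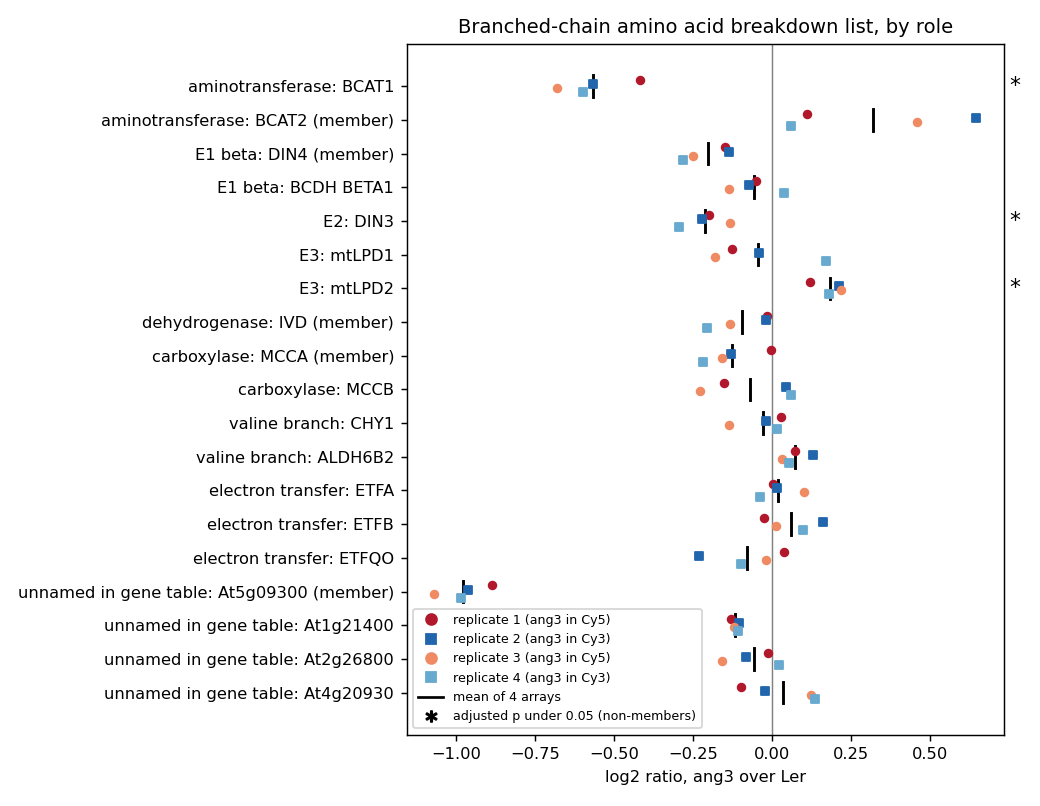
Log2 ratio of *ang3* over Ler for the genes of the branched-chain amino acid breakdown list, by role, with 1 point for each of the 4 arrays and a bar at their mean. At5g09300 and BCAT1 stand apart on the negative side and BCAT2 on the positive side, and the others lie nearer to 0; an asterisk marks an adjusted p under 0.05, given only for genes outside the 10.

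Of 14 further genes on this list 1 rose, 2 fell and 11 did not pass, a share of calls near the 26.2% over everything tested, with a median ratio of -0.05, and 9 of the 14 had a ratio below 0. With median centring 2 of the 14 did, and their median relative to that of all genes was -0.005. MCCB (-0.07), the beta subunit that pairs with MCCA, CHY1 (-0.03) and ALDH6B2 (0.07) of the valine branch, and the electron carriers ETFA (0.02), ETFB (0.06) and ETFQO (-0.08), which take up electrons from IVD, were among those that did not pass. The unnamed At2g26800 and At4g20930 had ratios of -0.06 and 0.04.

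The remaining 3 genes are markers of dark and sugar starvation. DIN10, a member of the raffinose synthase family that darkness induces, had log2 ratios of -0.38, -0.82, -1.25 and -1.12 (mean -0.89, SD 0.39, n = 4), or 53.8% of the Ler level. Its intensity was 2613, 2377, 2193 and 1711 in *ang3*, against 3396, 4204, 5214 and 3724 in Ler. All *ang3* values lay below all Ler values, and the smallest difference was on replicate 1. The mean was -1.11 without replicate 1 and -0.68 without replicate 3.

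At3g15450, for which the gene table gives no name, had log2 ratios of -0.70, -0.59, -1.01 and -1.43 (mean -0.93, SD 0.38, n = 4), or 52.3% of the Ler level. Its intensity was 13864, 17581, 14297 and 8021 in *ang3*, against 22539, 26504, 28792 and 21659 in Ler. The genotypes did not overlap, and replicate 4 gave the lowest *ang3* value and the lowest ratio.

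DIN1, also known as SEN1 and used as a marker of darkness and senescence, varied most between arrays. Its log2 ratios were -0.14, -0.25, -0.78 and -1.23 (mean -0.60, SD 0.50, n = 4), or 65.9% of the Ler level. Its intensity was 3225, 4179, 3149 and 2056 in *ang3*, against 3563, 4978, 5392 and 4832 in Ler. The genotypes overlapped, because *ang3* on replicate 2 was above Ler on replicate 1. The mean ranged from -0.85 without replicate 2 to -0.36 without replicate 4.

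**Figure D3:**
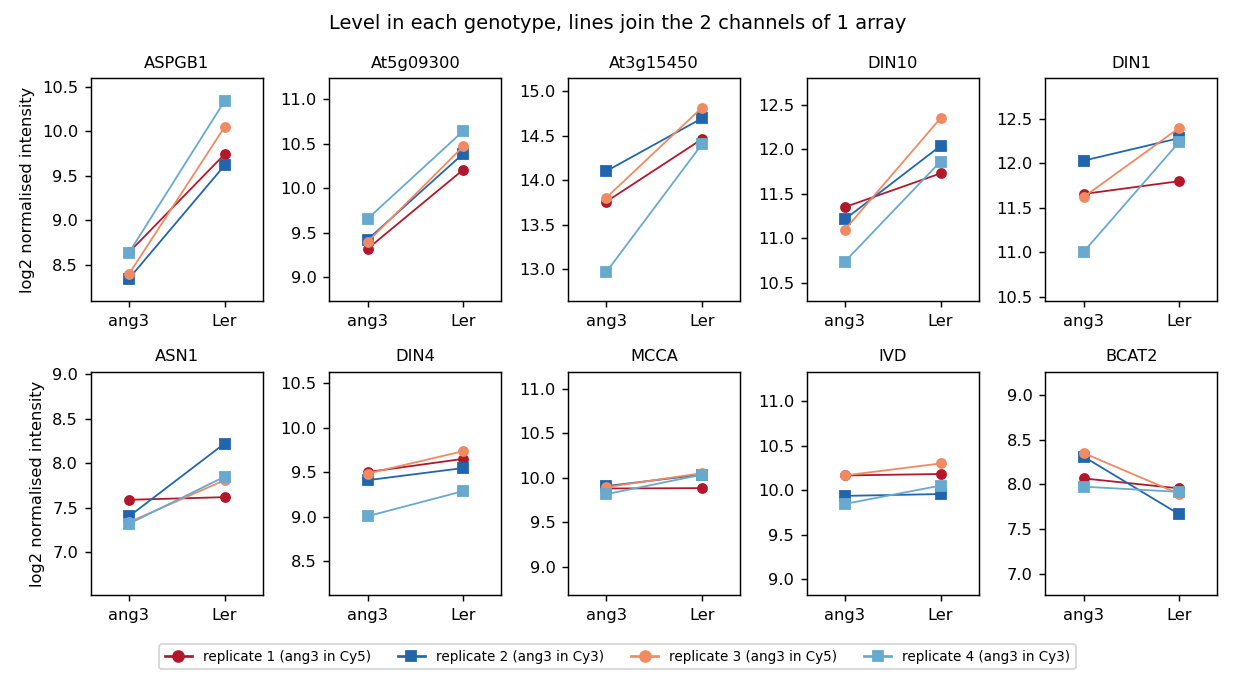
Log2 of the normalised channel intensity of the 10 genes, 1 panel for each gene, with the 4 *ang3* channels on the left, the 4 Ler channels on the right and lines that join the channels of 1 array. All panels span the same log2 range, placed at each gene's own level. The genotypes separate for ASPGB1, At5g09300, At3g15450, DIN10, ASN1 and BCAT2 and overlap for DIN1, DIN4, MCCA and IVD.

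The 10 genes did not lie equally far from Ler on every array. Their mean log2 ratio was -0.33, -0.44, -0.63 and -0.76 on replicates 1 to 4, beside an SD over all genes of 0.20, 0.34, 0.29 and 0.29. Replicate 4 gave the lowest ratio for 7 of the 10 and replicate 1 the highest for 7 of the 10. The dye, a contrast that the choice of genes did not use, passed the test for none of the 10: the lowest adjusted p was 0.354, for ASN1, whose dye intercept was 0.21 (SE 0.09), and 0 of 20155 passed in limma, with 3020 (15.0%) at an unadjusted p under 0.05. For ASN1 the mean ratio was -0.25 with *ang3* in Cy5 and -0.67 with *ang3* in Cy3, each from 2 arrays. In the authors' deposited table, ASPGB1 and At5g09300 were more than 2-fold lower on 4 arrays, ASN1 on 3, DIN10 on 2 and DIN1 and At3g15450 on 1 each.

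**Figure D4:**
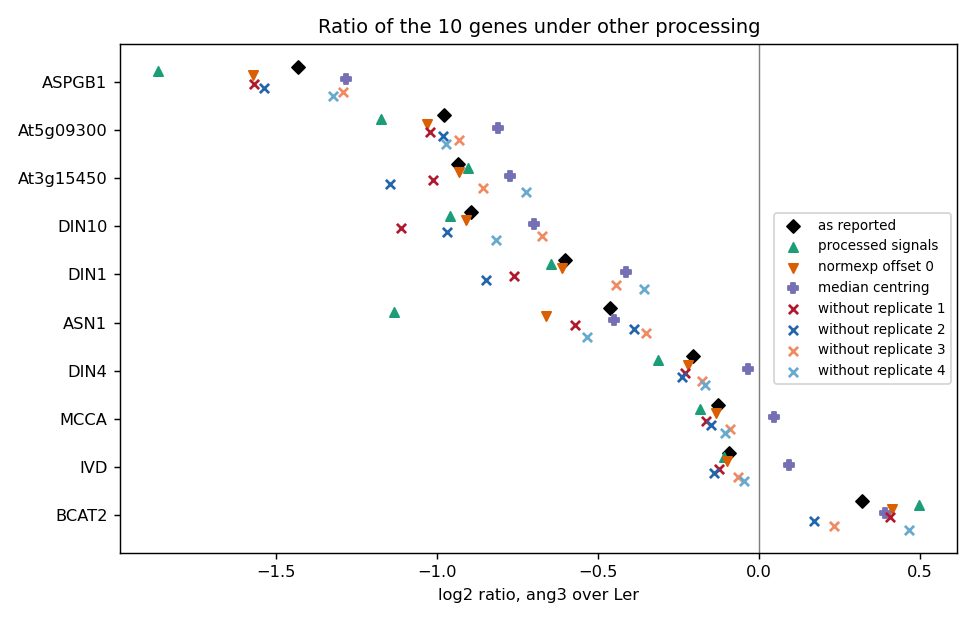
Mean log2 ratio of *ang3* over Ler for the 10 genes under the chosen analysis (as reported) and 7 alternatives. ASN1 lies at -0.46 as reported and -1.13 in the processed signals, and IVD and MCCA lie above 0 with median centring.

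The wider programme of dark and sugar starvation showed falls in 5 of 10 further genes tested, against 11.2% of everything tested, with 1 rise, 4 that did not pass and a median log2 ratio of -0.18. TPS11, a class II trehalose phosphate synthase-like protein, fell (-0.70, SE 0.10, adjusted p = 0.014), as did its relative TPS8 (-0.44, adjusted p = 0.018), the unnamed At1g23390 (-0.47, adjusted p = 0.012), DIN9 (-0.21, adjusted p = 0.027), a phosphomannose isomerase, and DIN3, described above. TPS9 (-0.14) and TPS10 (-0.09), which belong to the same family as TPS11, did not pass. The 5 falls became 3, 2, 1 and 2 without replicates 1, 2, 3 and 4 and 2 with median centring. The list was chosen with these ratios known and is no independent evidence of its direction.

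The 3 other genes of the list that were tested had mean ratios above 0. PPDK, pyruvate orthophosphate dikinase, which is active in starving and senescing leaves, rose (0.70, SE 0.07, adjusted p = 0.0085) and did so under all 11 alternatives. DIN2, a glycosidase, had ratios of -0.07, -1.44, 0.97 and 1.30, so its mean of 0.19 was far smaller than the spread between arrays (SD 1.23). DIN11 had a mean ratio of 0.73 (SD 0.94, adjusted p = 0.19). MIOX2 and MIOX4 were too dim to be tested.

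Among the regulators, 3 of 17 genes of the SnRK1 and bZIP list rose, 3 fell and 11 did not pass, with a median of 0.01. Of the kinase subunits, KIN10 (0.08, adjusted p = 0.19) and KIN11 (-0.03) did not pass. bZIP1, a transcription factor that activates ASN1 and other starvation genes, fell (-0.63, SE 0.07, adjusted p = 0.0087), as did its partner bZIP63 (-0.40, adjusted p = 0.012) and the kinase subunit AKINBETA1 (-0.42, adjusted p = 0.021). bZIP44 (0.29), bZIP11 (0.25), whose translation sucrose represses, and the glucose sensor HXK1 (0.16) rose. Without replicate 3 none of the 3 rises and none of the 3 falls passed, with bZIP1 at an adjusted p of 0.0502. HXK1 passed under 2 of the 11 alternatives, bZIP11 under 6 and bZIP44 under 10.

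Of 4 genes that sugar is known to induce, 3 rose in *ang3*, against 15.0% of everything tested. The median ratio of the 4 was 0.41, and 0.73 in the processed signals. GPT2, the glucose 6-phosphate transporter of the plastid, had ratios of 0.35, 1.03, 0.92 and 1.68 (mean 1.00, SE 0.14, adjusted p = 0.013). BAM5, a beta-amylase (0.33), and TPS5 (0.29) also rose, and APL3, a subunit of the starch synthesis enzyme ADP-glucose pyrophosphorylase, had a ratio of 0.50 (adjusted p = 0.068). Without replicate 3 none of the 4 passed, and GPT2 had an adjusted p of 0.060. The 3 rises became 2 in the processed signals and with no offset, and 1 without replicate 4. TPS5 passed under 4 of the 11 alternatives. BAM5 was dim, at 192 to 257 in *ang3* and 176 to 180 in Ler, and its ratio ran from 0.28 to 0.94 under the alternatives. Like the starvation list, these 4 genes were chosen with the ratios known and are no independent evidence of a direction.

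**Figure D5:**
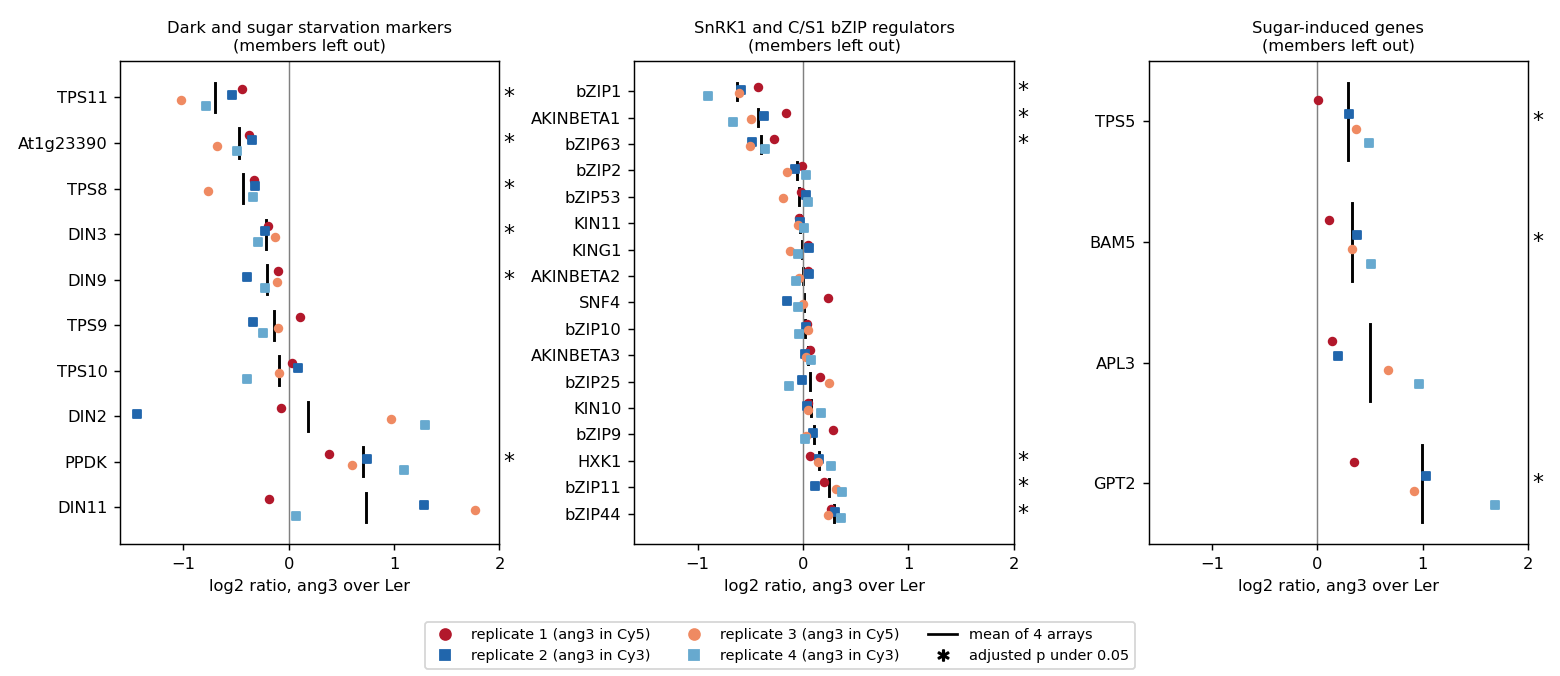
Log2 ratio of *ang3* over Ler for the starvation, SnRK1 and bZIP, and sugar-induced lists, without the 10 chosen genes, with 1 point for each of the 4 arrays, a bar at their mean and an asterisk at an adjusted p under 0.05. TPS11 (-0.70) and bZIP1 (-0.63) have the lowest means of their panels, and GPT2 (1.00) has the highest mean of all 3 panels.

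In the breakdown of other amino acids, ratios lay on both sides of 0. Of 22 genes 5 rose, 2 fell and 15 did not pass, with a median of 0.05. GDH2, a glutamate dehydrogenase that sugar shortage induces, rose (0.62, SE 0.05, adjusted p = 0.0067). So did the arginase ARGAH2 (0.44), P5CDH (0.25), an enzyme of proline breakdown, and GABA-T (0.22), which breaks down GABA. The fifth rise was the glutamate decarboxylase GAD2 (0.24, adjusted p = 0.042). STR1 (-0.20), a sulfurtransferase, and HPD (-0.15), of tyrosine breakdown, fell. PRODH1, the first enzyme of proline breakdown and a target of bZIP factors, had a ratio of -0.27 (adjusted p = 0.097), while the glutamate decarboxylase GAD1 (0.42, adjusted p = 0.059) and the methionine gamma-lyase MGL (0.28, adjusted p = 0.090) lay on the other side of 0 and did not pass either. HPD passed under 1 of the 11 alternatives and STR1 under 2, and the call on GABA-T was lost without any 1 of the 4 arrays. P5CDH was lost without replicate 2, 3 or 4 and ARGAH2 without replicate 3 or 4, while GDH2 passed under all 11. The 5 rises became 3, 3, 1 and 1 without replicates 1, 2, 3 and 4, and 12 with median centring.

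The raffinose list, to which DIN10 belongs, had a median of -0.01 without it, with 1 rise, of SIP2 (0.34), among 10 genes tested. Of 16 autophagy genes 2 rose (ATG8G, 0.32, and ATG8D, 0.21) and 1 fell (ATG8E, -0.27). Of 6 genes of peroxisomal beta-oxidation, ACX4 fell (-0.18) and the other 5 did not pass. ACX4 passed under 3 of the 11 alternatives, ATG8E under 2 and ATG8D under 4, and SIP2 and ATG8G were lost without replicate 3. Among 9 senescence markers SAG21 (1.26) and SAG13 (1.09) rose, while NYC1 (-0.51, adjusted p = 0.065), NAP (-0.34, adjusted p = 0.064) and WRKY53 (0.70, adjusted p = 0.093) did not pass. Neither SAG gene passed without replicate 2 or without replicate 3, SAG21 was also lost without replicate 4 and in the processed signals, and SAG13 had a ratio of 2.42 in the processed signals. Over all 11 lists, 22 of 126 genes rose (17.5%) and 15 fell (11.9%), shares near those of everything tested. The same counts were 12 and 14 in the processed signals and 55 and 6 with median centring.

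Markers of tissue also differed between the genotypes. The 3 leaf markers fell (CAB1 -0.44, LHCB2.1 -0.47, RBCS1A -0.17). Their summed intensity was 85421 to 91918 in *ang3*, against 98577 to 101953 in Ler. Most of that sum was RBCS1A, at 78213 to 87236 in *ang3* and 90731 to 92988 in Ler. CAB1 had ratios of -0.79 and -0.67 with *ang3* in Cy5 and of -0.24 and -0.07 with *ang3* in Cy3. LHCB2.1 had ratios of -1.05 and -0.53 with *ang3* in Cy5 and of -0.17 and -0.12 with *ang3* in Cy3. The calls on both were lost with no dye term. LHCB2.1 passed under 6 of the 11 alternatives, and RBCS1A under 3, but not without any 1 of the 4 arrays. The meristem markers STM (0.36) and KNAT1 (0.32) rose, though not without replicate 3, with a summed intensity for all 4 meristem probes of 1487 to 1637 in *ang3*, against 1195 to 1374 in Ler, while CLV3 and WUS were not well above background. None of the 4 root markers tested passed and PRP3 was not well above background. The summed intensity of all 5 root probes was 847 to 895 in *ang3*, against 835 to 897 in Ler. Of 2 flower markers tested PI fell (-0.25), a call lost without replicate 2, 3 or 4 and with no dye term. The flower sums were 384 to 463 in *ang3* and 470 to 483 in Ler. No flower marker was well above background in all 8 channels, and PI was so on 3 arrays in *ang3* and 4 in Ler. No seed marker could be tested, SESA1 was not well above background, and the sums were 329 to 404 in *ang3* and 366 to 540 in Ler. The part of these differences in the ratios of the 10 genes was not tested.

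The 5 profiles nearest to the mean of the 10 genes, by Euclidean distance over the 4 array ratios, were PSAN, a photosystem I subunit, a probe with no locus name, RbcX1, a homologue of a Rubisco assembly chaperone, the unnamed At3g09050 and RPE, ribulose-5-phosphate 3-epimerase. Their distances were 0.136 to 0.156. PSAN had ratios of -0.46, -0.42, -0.62 and -0.77 on replicates 1 to 4. The 10 genes themselves lay much farther from their own mean, at 0.555 for DIN1 to 1.80 for BCAT2, so that mean stands for no single gene of the group.

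By position, 2 of the 10 genes lie on chromosome 1, 5 on chromosome 3, 1 on chromosome 4 and 2 on chromosome 5. Of the 100 nearest tested neighbours, 5 on each side of every gene, 16 rose and 16 fell, beside 15.0% and 11.2% of everything tested. The median ratio of a gene's neighbours was between -0.04 and 0.09.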

How the data were processed

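Each of 4 arrays compared *ang3* with Ler. Per the file headers, spots were quantified by Agilent Feature Extraction 10.1.1.1, the version in the submitters' processing notes. The deposited median spot and background intensity values carry no normalization. The deposited processed signal intensity is background-subtracted and dye-normalized by the authors, the deposited log10 ratio is red over green, and the deposited p-value comes from its error model on 1 array. The authors' deposited series table gives log2 ratio values of *ang3* over Ler for 32149 probes (r = 1 and slope 1 against the processed signals; column medians -0.045, 0.026, 0.0077 and -0.097). Median signals were used because the files hold no mean spot signals.

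Analysis used R 4.3.3, limma 3.58.1, Python 3.11.15 and matplotlib 3.10.9. Signals were corrected by normexp (offset 50) and normalized by loess, without control spots and outlier spots (4 to 12 per array). No spot was saturated. Of 37478 probes, 19224 to 21332 per channel were well above background. Probes entered the test when 1 genotype's channel was well above background on 3 or more of 4 arrays, and a locus was taken as its brightest probe. Ratios were fitted with a dye intercept (limma, eBayes), with Benjamini-Hochberg adjusted p-values over 20155 genes and probes. Channel intensities followed loess and Aquantile. Only 4 arrays limit the precision. The series text states biological replicates in dye swaps but not which arrays share extracts, so p-values may partly measure technical spread. All arrays came from 1 slide and 1 scan, so no batch was testable. The members and lists were chosen with earlier results of these data known. Named genes were the 10 members, RPL5B, the other genes of the branched-chain lists, ASN2, ASN3 and ASPGA1, the genes passing in each other list (where over 6 passed, the 3 highest and 3 lowest), and the 5 nearest profiles. Others given a value (KIN10, KIN11, TPS9, TPS10, DIN2, DIN11, APL3, NYC1, NAP, PRODH1, GAD1, GAD2, MGL, WRKY53) were chosen after their values were seen. All 160 listed loci matched the TAIR10.1 gene table. No coordinates are printed, since the build is not given in the sources used here. The fit was tested on simulated data. Alternatives were processed signals, no offset, median centring, no dye term, no dim filter, mean of probes, the series table and leaving out each array.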

Additional observations from a re-analysis of the deposited data

Results flagged for a closer look

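Of 80 genes examined, the 10 members and 70 other named genes, 4 had 1 array set apart from the other 3 by Dixon's ratio (gap over range), and chance gives about 1 in 20. None of the 4 was a member. They were TPS8 (0.949), low on replicate 3, ATG8G (0.888), high on replicate 1, STR1 (0.840), low on replicate 1, and At1g50110 (0.8292), high on replicate 3.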

How the results depend on the processing

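The median log2 ratio of the 10 members stayed between -0.77 and -0.40 under all 11 alternatives (-0.67 to -0.40 when 1 array was left out), and 9 of the 10 were below 0 in each, except that median centring left 7. Median centring in place of loess turned the sign of the members MCCA (0.046) and IVD (0.093), of HPD (0.038), which had passed, and of 9 other named genes that had not passed. It raised the median of all genes by 0.13 and gave 6952 higher and 425 lower genes, against 3018 and 2265, and 55 risers and 6 fallers among the related lists, against 22 and 15. The processed signals and the series table, which hold nearly the same values, each gave 12 risers and 14 fallers in the lists, so that fallers were the more numerous, as they were over all genes (2124 higher and 2417 lower in the processed signals). Leaving out 1 array gave 374 to 1687 higher and 162 to 1218 lower genes, and 2 to 17 risers and 3 to 8 fallers in the lists, the lowest without replicate 3. This leaves fewer arrays and 1 residual degree of freedom less. Of 770 alternative values for 70 named genes, 597 kept their side of the threshold, 161 lost the call, 11 gained one and 1 turned round. The sign also changed in 26 values of genes that did not pass. Every ratio already pairs the genotypes within an array. No paired analysis was possible because, beyond that, no arrays share a replicate number. All 10 members were well above background on 4 arrays in both genotypes, and ASN1 was -0.66 with no offset.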
